A study of Homo sapiens with 36 samples.

Results

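The miR-29 family was followed through 36 small RNA libraries of WI-38, a normal fibroblast strain of human lung. Its members are the 6 mature miRNAs listed under the names miR-29a, miR-29b and miR-29c: hsa-miR-29a-3p, hsa-miR-29a-5p, hsa-miR-29b-3p, hsa-miR-29b-1-5p, hsa-miR-29c-3p and hsa-miR-29c-5p. They were chosen by name from the 1508 miRNAs of the table, not by a filter on their values. Earlier results of these data were known at the time. The 18 conditions had 2 biological replicates each. Ctrl cells were young, proliferating and untreated. PMD-Sen cells (plasma membrane damage-dependent senescence) were exposed for 24 h to sodium dodecyl sulphate (SDS), a detergent. DDR-Sen cells (DNA damage response-dependent senescence) were exposed for 24 h to doxorubicin (DXR), a drug that breaks DNA. Both series were collected 8 times between D0, the end of the exposure, and D16, the other time points being D1 to D4, D6 and D8, in days after removal of the agent. RS cells had reached replicative senescence through serial passage. All conditions came from the same cell strain, so the spread between replicates holds no variation between donors.

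A miRNA gene is transcribed into a hairpin, whose stem is cut out as a duplex of a 5p and a 3p arm. One arm, the guide, is loaded into an Argonaute protein and pairs with messenger RNAs through its seed, bases 2 to 8, while the passenger arm is mostly degraded. In the miR-29 family the 3p arms are the usual guides. They are known for repressing fibrillar and basement membrane collagens, elastin, fibrillin and other matrix mRNAs, and the DNA methyltransferases DNMT3A and DNMT3B. In fibroblasts the family is best known for holding back matrix production, and its fall accompanies fibrosis in several organs. No target mRNA was measured in these libraries.

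All 6 members matched a RefSeq entry (build GRCh38.p14). The 3p arms are shown because they differ at few bases, which bears on how reads were assigned to them. Capitals mark the seed.
hsa-miR-29a-3p: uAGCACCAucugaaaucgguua
hsa-miR-29b-3p: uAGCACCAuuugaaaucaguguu
hsa-miR-29c-3p: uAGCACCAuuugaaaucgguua
The seed AGCACCA is shared by these 3 arms and by no other of the 2370 human mature miRNAs in the RefSeq table. With positions counted from 1 at the 5′ end, hsa-miR-29a-3p and hsa-miR-29c-3p differ by 1 substitution, C10U. hsa-miR-29a-3p and hsa-miR-29b-3p differ by C10U, G18A, U21G and A22U, and hsa-miR-29b-3p is 1 base longer. The last 6 bases of hsa-miR-29b-3p, AGUGUU, are a motif known for sending this arm to the nucleus, and 2 of the 2370 mature miRNAs end in it.

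The 5p arms are shown because 1 of them, hsa-miR-29b-1-5p, carried the changes described below. Their seeds, in capitals, differ from each other and from that of the 3p arms.
hsa-miR-29a-5p: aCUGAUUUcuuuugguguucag
hsa-miR-29b-1-5p: gCUGGUUUcauauggugguuuaga
hsa-miR-29c-5p: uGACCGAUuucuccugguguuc
Each of these 5p seeds belongs to no other mature miRNA of the RefSeq table.

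The arms come from 4 hairpins in 2 places of the genome. The hairpins of MIR29A (chr7:130876747-130876810) and MIR29B1 (chr7:130877459-130877539) lie on the minus strand, 648 nt apart, inside the long noncoding RNA gene LINC-PINT of the GENCODE v44 annotation. The MIR29A hairpin lies wholly within no exon of its annotated transcripts, and that of MIR29B1 lies within an exon of 1 of them. The hairpins of MIR29C (chr1:207801852-207801939) and MIR29B2 (chr1:207802443-207802523) lie on the minus strand, 503 nt apart, in the noncoding host gene MIR29B2CHG. Each lies within an exon of 1 annotated transcript of that gene, and whether it is the same transcript was not checked. The mature hsa-miR-29b-3p is identical from MIR29B1 and MIR29B2, so its counts cannot be assigned to a chromosome. Its 5p partners differ, and hsa-miR-29b-1-5p reads out MIR29B1 alone.

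The deposited values are expected counts, in which a read that fits several miRNAs is divided among them. Library totals ranged from 81668 (PMD-Sen D0 replicate 2) to 1933435 counts (PMD-Sen D16 replicate 1). edgeR's low-count filter kept 360 miRNAs for testing, 5 of the 6 members among them. The fibroblast label was checked against miRNA markers. The mesenchymal list, with 6 of 6 members in the table, summed to between 8751 and 32008 CPM (counts per 1000000 counts of the library total), the epithelial list (6 of 6) to between 16.1 and 173 CPM, the endothelial list (2 of 2) to between 19.1 and 191 CPM, and the blood list (4 of 6) to between 159 and 1060 CPM. No listed marker was at 0 in every library. The mesenchymal sum was 23999 and 25425 CPM in Ctrl, 17988 and 28886 CPM in the PMD-Sen D16 libraries, 13282 and 15367 CPM in those of DDR-Sen D16, and 8751 and 16217 CPM in RS. The blood sum was 208 and 215, 219 and 368, 410 and 593, and 476 and 1060 CPM in the same 4 conditions. The endothelial sum was 45.8 and 58.2, 134 and 136, 132 and 161, and 121 and 191 CPM in them, and the part of these sums in the results on the miR-29 arms was not tested. In such libraries a smaller share of expressing cells and less RNA per cell cannot be told apart.

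The family was dominated by a single arm in these cells. hsa-miR-29a-3p held 97.1% of all member counts over the 36 libraries, and 92.5% to 98.5% of them in a single library. It was the 21st most abundant of all listed miRNAs. hsa-miR-29b-1-5p held 2.19% of the member counts and hsa-miR-29b-3p held 0.486%. hsa-miR-29c-3p held 0.0977%, hsa-miR-29a-5p 0.0851% and hsa-miR-29c-5p 0.0230% of the pooled counts. By the median over libraries hsa-miR-29c-3p (0.0683%) stood below hsa-miR-29a-5p (0.0722%), and the order of these arms was not settled. Mature miRNAs are of nearly equal length, so the counts were not divided by length, but adapter ligation differs between sequences and these shares are shares of reads.

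The counts behind the members set what could be compared. hsa-miR-29a-3p had between 1043 and 39713 counts in a library, hsa-miR-29b-1-5p between 48 and 301, and hsa-miR-29b-3p between 4 and 258. hsa-miR-29c-3p had at most 3 counts in 19 of 36 libraries and hsa-miR-29a-5p in 13. hsa-miR-29c-5p had 0 counts in 18 libraries and at most 3 in 35. A count of 0 allows up to 3 counts, which covers counting error only. The chromosome 1 arms were close to the limit of detection.

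**Figure D1:**
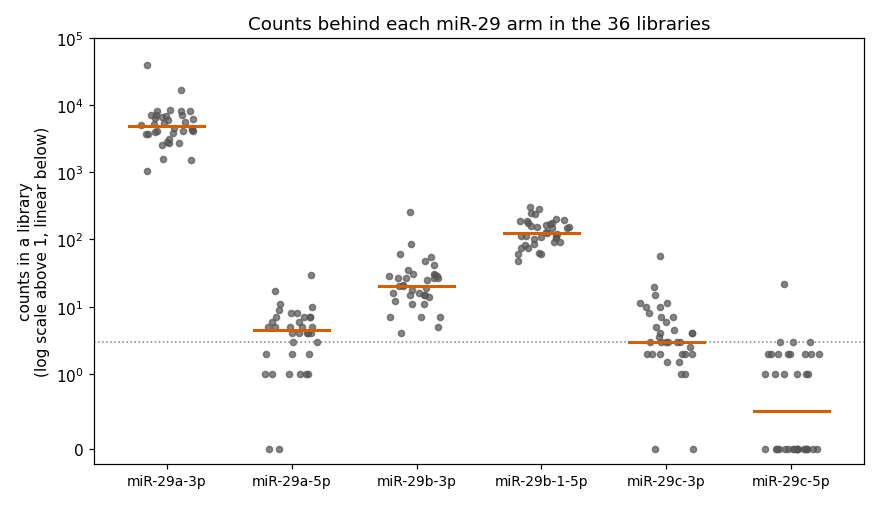
Expected counts of each miR-29 arm in each of the 36 libraries (points, spread sideways for legibility), with the median as a bar and a dotted line at 3 counts. The vertical axis is logarithmic above 1 count and linear below. hsa-miR-29a-3p lay at or above 1043 counts in every library, whereas hsa-miR-29c-5p passed 3 counts in a single one.

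The arms that can be assigned to a chromosome were almost wholly from chromosome 7. hsa-miR-29c-3p, hsa-miR-29c-5p and hsa-miR-29b-2-5p, the 5p arm of MIR29B2, which is not among the 6 members, made up 0.0175% to 0.419% of the counts that can be placed (median 0.118%). hsa-miR-29c-3p differs from hsa-miR-29a-3p at a single base, and the values of both were not whole in 8 of 36 libraries. How many of the hsa-miR-29c-3p counts were misread hsa-miR-29a-3p was not tested, and its level is uncertain for this reason. hsa-miR-29b-1-5p and hsa-miR-29b-2-5p were both not whole in 4 libraries.

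hsa-miR-29a-3p, the usual guide of MIR29A and by counts the most abundant arm of the family, differed from Ctrl by a call in no condition. Its level, in CPM on TMM-scaled totals as for all member levels that follow, was 12262 and 13203 in the Ctrl libraries. In PMD-Sen it was 9571 and 16983 CPM (D0), 15092 and 9928 (D1), 14204 and 10812 (D2), 13977 and 12707 (D3), 12914 and 9315 (D4), 15040 and 11372 (D6), 12412 and 13305 (D8), and 21580 and 14429 (D16). In 7 of these 8 time points the libraries overlapped the range of the Ctrl libraries, and at D16 both lay above it. In DDR-Sen it was 15248 and 15644 CPM (D0), 17958 and 13678 (D1), 17261 and 13039 (D2), 14617 and 12557 (D3), 11061 and 11574 (D4), 12693 and 11604 (D6), 11871 and 10050 (D8), and 11826 and 13662 (D16). Both libraries were above Ctrl at D0 and D1 and below it at D4 and D8. This is a weak criterion. Of all tested miRNAs, 35.8% had both libraries above Ctrl at PMD-Sen D16, 18.9% at DDR-Sen D0 and 26.1% at DDR-Sen D1. Both were below Ctrl for 27.2% at DDR-Sen D4 and 31.4% at DDR-Sen D8. In RS the level of hsa-miR-29a-3p was 9045 and 13040 CPM, which overlapped the Ctrl range.

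Ordered by their means, the 18 conditions ran from 18004 ± 5057 CPM (SD, n = 2) at PMD-Sen D16 to 10960 ± 1288 CPM at DDR-Sen D8, a 1.64-fold range. In that order, 16 of the 17 neighbouring pairs had overlapping libraries. As a share of all counts, hsa-miR-29a-3p took 0.872% to 2.05% of a library.

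No difference of hsa-miR-29a-3p from Ctrl passed an adjusted p of 0.05, the threshold for a call used throughout (edgeR's quasi-likelihood test, Benjamini-Hochberg adjustment over the 360 tested miRNAs). Its log2 fold change lay between -0.22 and 0.31 in DDR-Sen and was -0.21 (SE 0.25) in RS. The highest value was 0.50 (SE 0.25) at PMD-Sen D16, with a 95% confidence interval of -0.01 to 1.01 and an adjusted p of 0.149 (edgeR). It was 0.18 (adjusted p = 0.709) without PMD-Sen D16 replicate 1 and 0.76 (0.0777) without replicate 2.

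hsa-miR-29b-1-5p, the 5p arm of MIR29B1, was the member that changed. In most cells it is the passenger, but here it had more counts than hsa-miR-29b-3p in every library. The level of hsa-miR-29b-1-5p was 652 and 531 CPM in the Ctrl libraries. In PMD-Sen it was 688 and 534 CPM (D0), 643 and 653 (D1), 435 and 474 (D2), 389 and 395 (D3), 269 and 213 (D4), 245 and 254 (D6), 160 and 248 (D8), and 152 and 187 (D16). The D0 and D1 libraries overlapped Ctrl, and from D2 on both libraries of every time point lay below it.

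In DDR-Sen it was 399 and 252 CPM (D0), 321 and 524 (D1), 404 and 531 (D2), 499 and 512 (D3), 417 and 592 (D4), 419 and 356 (D6), 294 and 298 (D8), and 155 and 115 (D16). The level was low directly after DXR, higher from D2 to D4, and lowest at D16. All DDR-Sen time points but D4 had both libraries below the Ctrl libraries. At D2 this was nearly a tie, with 530.7 CPM in the higher library and 531.2 CPM in the lower Ctrl library. In RS the level was 269 and 121 CPM, both below Ctrl. Over PMD-Sen, DDR-Sen and RS, 14 of 17 conditions had both libraries below both Ctrl libraries. That is a weak criterion in a single condition, where 19.4% to 36.4% of all tested miRNAs met it. The share of miRNAs that met it in as many conditions was not computed, and the conditions share the Ctrl libraries.

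**Figure D2:**
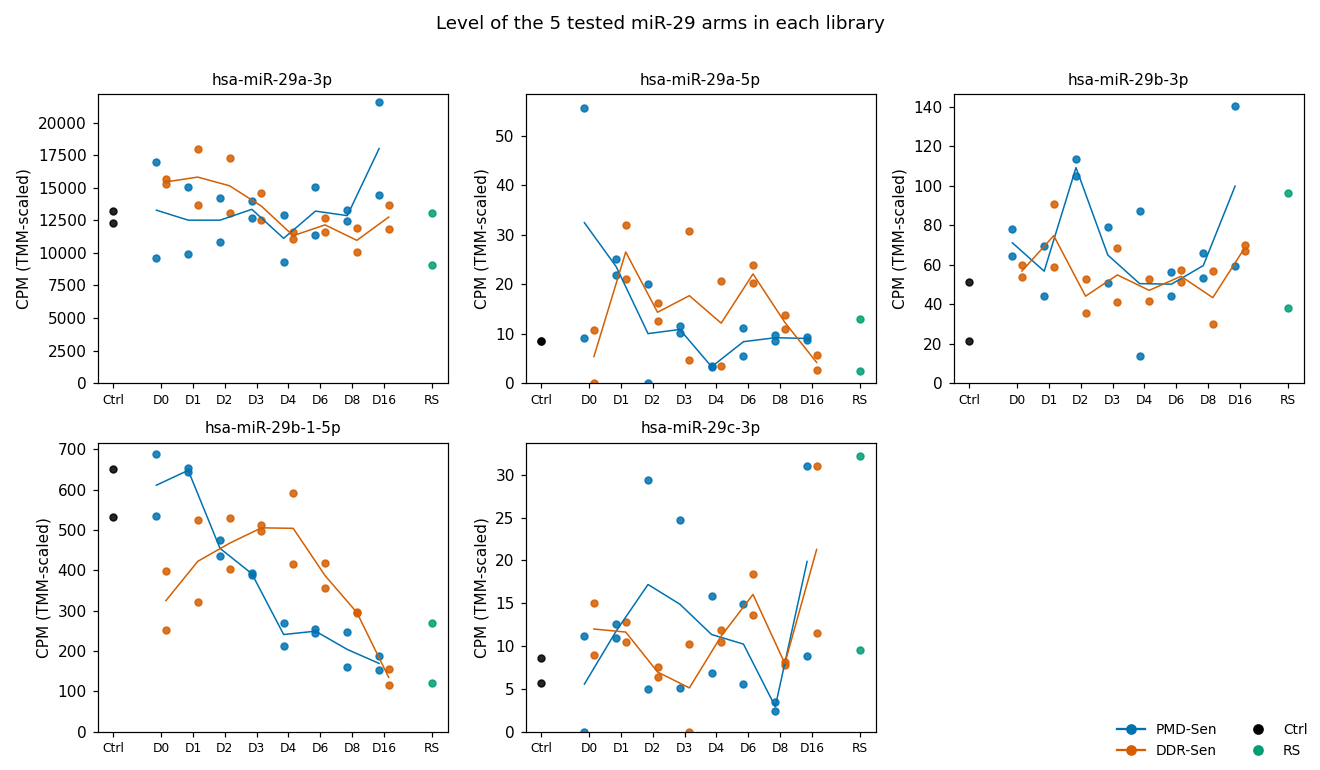
TMM-scaled CPM of the 5 tested miR-29 arms in every library, by condition. Points are libraries, lines join the means of the 2 replicates of PMD-Sen (blue) and DDR-Sen (orange), days are spaced evenly and not to scale, and each panel has its own axis from 0. hsa-miR-29b-1-5p went from 652 and 531 CPM in Ctrl to 152 and 187 CPM at D16 of PMD-Sen and 155 and 115 CPM at D16 of DDR-Sen, while hsa-miR-29a-3p stayed between 9045 and 21580 CPM.

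hsa-miR-29b-1-5p fell in PMD-Sen from D4 on. Its log2 fold change against Ctrl was -1.28 (SE 0.31, adjusted p = 0.0207 by edgeR) at D4, -1.24 (SE 0.31, adjusted p = 0.0126) at D6, -1.54 (SE 0.31, adjusted p = 0.00271) at D8 and -1.81 (SE 0.31, adjusted p = 0.000439) at D16, where the level was 3.51-fold lower. In DDR-Sen it fell at D8, by 1.00 on the log2 scale (SE 0.31, adjusted p = 0.0283), and at D16, with a log2 fold change of -2.13 (SE 0.33, adjusted p = 2.13e-05), a 4.39-fold lower level. In RS it fell by 1.62 (SE 0.31, adjusted p = 0.000256), or 3.07-fold. DESeq2 called the same 6 time points and RS. With every library thinned to the smallest total, it was called at 2 time points in place of 6.

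The value at DDR-Sen D0, -0.85 (SE 0.31), had an unadjusted p of 0.00943 but an adjusted p of 0.377 (edgeR), as no tested miRNA passed at this time point. The RS replicates lay far apart. Without the higher RS library the log2 fold change was -2.29, and without the lower one it was -1.27, and both passed the test. The 17 comparisons share the 2 Ctrl libraries, so they are not independent of each other.

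hsa-miR-29b-3p, the usual guide arm of both miR-29b hairpins, was rare and lay above Ctrl in its point estimates, with no call. By counts it was the minor arm, at 0.0329 to 0.921 per hsa-miR-29b-1-5p count over the 36 libraries (median 0.144). Which arm served as the guide in these cells was not tested. It had 21.5 and 51.4 CPM in the Ctrl libraries, which rest on 5 and 18 counts. In PMD-Sen it had 64.2 and 77.9 CPM (D0), 69.5 and 43.9 (D1), 105 and 113 (D2), 79.1 and 50.6 (D3), 87.0 and 13.8 (D4), 56.1 and 44.2 (D6), 53.3 and 65.7 (D8), and 140 and 59.3 (D16). The replicates at D4 and D16 lay far apart, and the lowest and the highest library of the whole set were among them.

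In DDR-Sen it had 53.6 and 59.9 CPM (D0), 90.7 and 58.7 (D1), 52.7 and 35.4 (D2), 41.0 and 68.6 (D3), 52.5 and 41.4 (D4), 51.0 and 57.2 (D6), 56.7 and 29.8 (D8), and 69.9 and 67.0 (D16). In RS it had 38.1 and 96.4 CPM. Ctrl had the lowest mean of the 18 conditions, 36.4 ± 21.2 CPM (SD, n = 2), and all 17 neighbouring pairs in the order of means had overlapping libraries. In 7 of 17 conditions both libraries lay above both Ctrl libraries, and in 10 they overlapped them. This too is a weak criterion, met by 16.7% to 35.8% of all tested miRNAs in a single condition. The share that met it in as many conditions was not computed.

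The log2 fold change of hsa-miR-29b-3p was above 0 at all 16 time points, from 0.21 to 1.51, and 0 of these passed the test, while 2 had an unadjusted p below 0.05 and DESeq2 called 0. As every comparison uses the same Ctrl libraries, with few counts, the common sign has no weight of its own. The values nearest the threshold were 1.43 (SE 0.55, 95% confidence interval 0.30 to 2.57, adjusted p = 0.0700 by edgeR) at PMD-Sen D16 and 1.51 (SE 0.58, adjusted p = 0.211) at PMD-Sen D2. At PMD-Sen D16 the value was 1.87 and passed without the lower replicate, but it was 0.64 (adjusted p = 0.576) without the higher one. It was 1.00 (adjusted p = 0.355) without Ctrl replicate 1, 2.25 (0.111) without Ctrl replicate 2 and 0.87 (0.487) when thinned. At DDR-Sen D16 it was 0.84 (SE 0.58, adjusted p = 0.318) and in RS 0.85 (SE 0.58, adjusted p = 0.314).

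**Figure D3:**
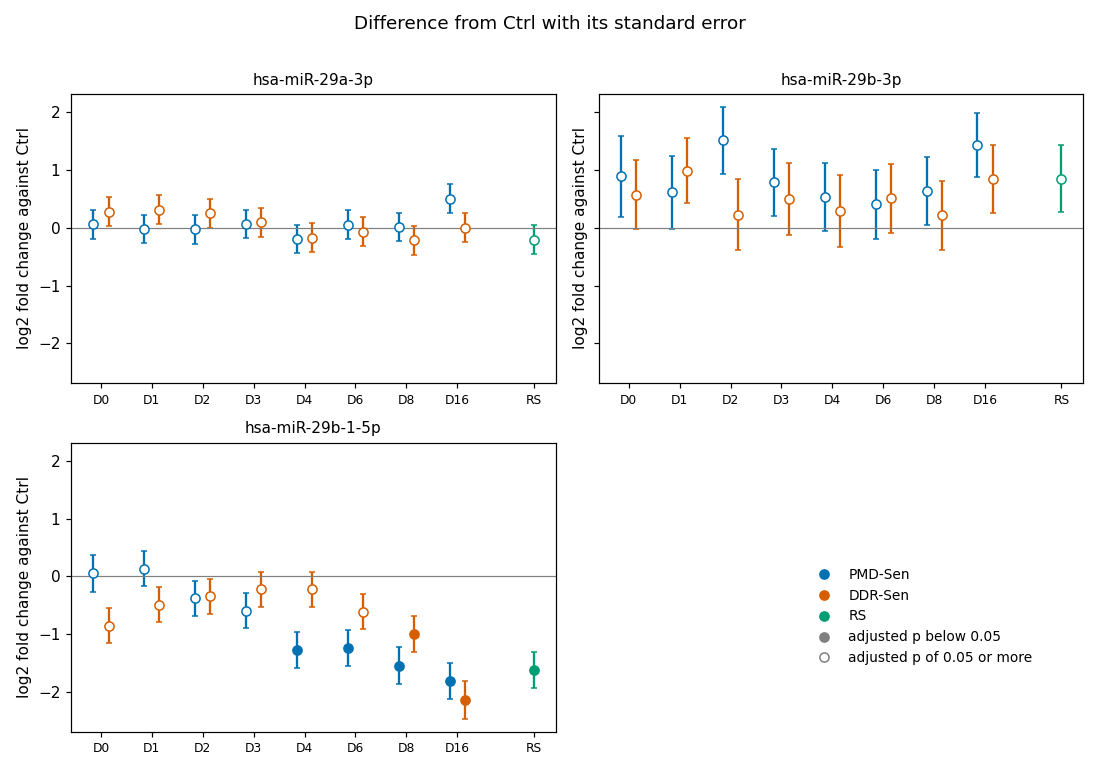
Log2 fold change against Ctrl of the 3 miR-29 arms with enough counts, with its standard error as a bar, at each time point of PMD-Sen (blue) and DDR-Sen (orange) and in RS (green). Filled points have an adjusted p below 0.05 by edgeR. The filled points all belong to hsa-miR-29b-1-5p, at PMD-Sen D4 to D16, DDR-Sen D8 and D16, and RS.

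The remaining arms were too rare for a fold change. hsa-miR-29c-3p, the guide of MIR29C, had 8.58 and 5.71 CPM in Ctrl, 31.0 and 8.79 CPM in PMD-Sen D16 libraries, 31.1 and 11.5 CPM in those of DDR-Sen D16, and 9.53 and 32.1 CPM in RS. These levels were computed from counts rounded to whole numbers, and the expected counts in Ctrl were 1.5 and 2. In each of the 3 late conditions both libraries were above both Ctrl libraries. So were those of 31.9% to 35.8% of tested miRNAs at D16 and 28.1% in RS. This was not particular to late conditions. Both libraries were also above Ctrl at PMD-Sen D1 and at DDR-Sen D0, D1, D4 and D6. Of tested miRNAs, 18.9% to 33.9% were so at those time points. At PMD-Sen D8 both were below Ctrl, as were those of 32.2% of tested miRNAs. hsa-miR-29a-5p, the passenger of MIR29A, had 2 and 3 counts in Ctrl and between 0 and 30 counts elsewhere, the most in DDR-Sen D1 replicate 1. It made up at most 0.327% of the counts of the MIR29A arms in any library. Neither arm was called by edgeR in any of the 24 comparisons, with SE at the 16 time points of 0.92 to 1.80 on the log2 scale. hsa-miR-29c-5p was not tested. Its 22 counts in PMD-Sen D16 replicate 1, the deepest library, correspond to 12.0 CPM.

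The counts of members called can be read against the share of all tested miRNAs called. In PMD-Sen, 0.278% of tested miRNAs were called at D0, 2.22% at D1, 2.5% at D2, 0.278% at D3, 3.89% at D4, 6.67% at D6, 10% at D8 and 16.7% at D16. In DDR-Sen the shares were 0% at D0 (34 of 360 miRNAs had an unadjusted p below 0.05), 0.278% at D1, 0.278% at D2, 4.44% at D3, 6.67% at D4, 10.6% at D6, 11.4% at D8 and 23.1% at D16. In RS 22.5% were called. Against these shares, 1 of 5 tested members was called lower, and 0 higher, at each of PMD-Sen D4, D6, D8 and D16, DDR-Sen D8 and D16, and RS. With 5 members tested, 1 call in any late condition is close to the background and says nothing of the family as a group. The median log2 fold change of the 5 members was 0.50 for PMD-Sen D16, 0.00 for DDR-Sen D16 and -0.05 for RS. The medians over all 360 miRNAs were 0.05, -0.03 and 0.12. With 5 members the median is the value of 1 arm and shows no shift of the family. That arm was hsa-miR-29a-3p at D16 of both series and the rare hsa-miR-29a-5p in RS.

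The time courses were also fitted as slopes, the change in log2 level per unit of log2(day + 1), over the 16 libraries of each series in a model of 32 libraries. hsa-miR-29b-1-5p fell with day in PMD-Sen, with a slope of -0.56 (SE 0.09, adjusted p = 3.62e-06 by edgeR). In this series 37.2% of tested miRNAs had a called slope. In DDR-Sen its slope was -0.24 (SE 0.09, adjusted p = 0.0541), just outside the threshold, where 24.7% of tested miRNAs were called. DESeq2 called this slope. Over the alternatives it ranged from -0.53 to 0.01, and it was 0.01 without D16. The level of hsa-miR-29b-1-5p did not fall steadily in DDR-Sen. It was 399 and 252 CPM at D0, 499 and 512 at D3, and 155 and 115 at D16. The slope thus depends on the D0 libraries as well as on those of D16. The difference between the slopes, PMD-Sen minus DDR-Sen, was -0.31 (SE 0.13, adjusted p = 0.0872) and was not called by edgeR. DESeq2 gave -0.30 and called it.

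hsa-miR-29a-3p had slopes of opposite sign, 0.08 (SE 0.05, adjusted p = 0.178 by edgeR) in PMD-Sen and -0.12 (SE 0.05, adjusted p = 0.0799) in DDR-Sen, and neither was called. Their difference, 0.20 (SE 0.07), was called with an adjusted p of 0.0469 (edgeR), in a comparison where 14.2% of tested miRNAs were called. The call was lost without the replicate 1 libraries, where the difference was 0.09 (adjusted p = 0.816), and without D16, where it was 0.19 (adjusted p = 0.146). It was also lost with DESeq2's size factors (adjusted p = 0.0508), with library totals (0.0808), at a mean of at least 10 counts (0.0817), with thinning (0.105) and with day itself (0.0635). hsa-miR-29b-3p had a slope of 0.07 (SE 0.11) in PMD-Sen and -0.02 (SE 0.11) in DDR-Sen, with adjusted p of 0.620 and 0.888 (edgeR).

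The late states were compared with each other. Comparing D16 of PMD-Sen with D16 of DDR-Sen, 0.556% of tested miRNAs and 0 members were called, with 0 members at an unadjusted p below 0.05 and 0 called by DESeq2. hsa-miR-29b-1-5p was 0.32 higher in PMD-Sen on the log2 scale (95% confidence interval -0.34 to 0.98), and hsa-miR-29a-3p 0.50 higher (-0.01 to 1.00). The second value was 0.18 without PMD-Sen D16 replicate 1 and 0.76 without replicate 2. The intervals reach 0.98 and 1.00 log2 units, so likeness was not shown. Between PMD-Sen D16 and RS, 9.17% of tested miRNAs and 0 members were called, and DESeq2 called 0. hsa-miR-29a-3p came nearest, 0.71 higher at PMD-Sen D16 (SE 0.25, unadjusted p = 0.00800, adjusted p = 0.0640 by edgeR). It passed without PMD-Sen D16 replicate 2 (0.97) or without RS replicate 2 (1.10), and was 0.39 (adjusted p = 0.579) without PMD-Sen D16 replicate 1 and 0.47 (0.523) without RS replicate 1. Between DDR-Sen D16 and RS, 4.44% of tested miRNAs and 0 members were called, with 0 at an unadjusted p below 0.05 and 0 called by DESeq2. hsa-miR-29b-1-5p differed there by -0.52 (95% confidence interval -1.18 to 0.15).

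Over D1 to D16, with day as a factor, 21.7% of tested miRNAs differed between PMD-Sen and DDR-Sen. Of the members 0 were called, with 0 at an unadjusted p below 0.05 and 0 called by DESeq2. hsa-miR-29b-3p was 0.40 higher in PMD-Sen (SE 0.20, adjusted p = 0.165 by edgeR), hsa-miR-29a-3p 0.08 higher (SE 0.10) and hsa-miR-29b-1-5p 0.19 lower, at -0.19 (SE 0.13).

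A ratio of 2 arms within a library does not depend on the scaling between libraries. Per hsa-miR-29b-1-5p count there were 18.8 and 24.9 counts of hsa-miR-29a-3p in Ctrl. In PMD-Sen the ratio was 13.9 and 31.8 (D0), 23.4 and 15.2 (D1), 32.6 and 22.8 (D2), 35.8 and 32.2 (D3), 48.0 and 43.7 (D4), 61.4 and 44.8 (D6), 77.6 and 53.6 (D8), and 142 and 77.2 (D16). From D3 on both libraries exceeded both Ctrl libraries. In DDR-Sen it was 38.3 and 62.2 (D0), between 19.5 and 55.9 from D1 to D8, and 76.1 and 119 (D16). In RS it was 33.6 and 108.

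The ratio of the arms of the miR-29b hairpins moved the same way. Per hsa-miR-29b-1-5p count there were 0.0329 and 0.0968 counts of hsa-miR-29b-3p in Ctrl, 0.921 and 0.318 for PMD-Sen D16, 0.450 and 0.583 for DDR-Sen D16, and 0.142 and 0.800 in RS. In the 3 late conditions every library lay above both Ctrl libraries. This was not particular to them. Both libraries also lay above Ctrl at PMD-Sen D2 (0.241 and 0.239), D3, D6 and D8. The same held at DDR-Sen D0 (0.134 and 0.238), D1, D6 and D8. At the remaining time points the libraries overlapped the Ctrl range. The 3p counts in this ratio may include those of MIR29B2, whose own 5p arm had at most 23 counts in a library. These ratios use the same counts as the tests above and add no separate evidence for the fall of hsa-miR-29b-1-5p. They are given with no test, since 2 libraries against 2 cannot reach an exact permutation p of 0.05.

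**Figure D4:**
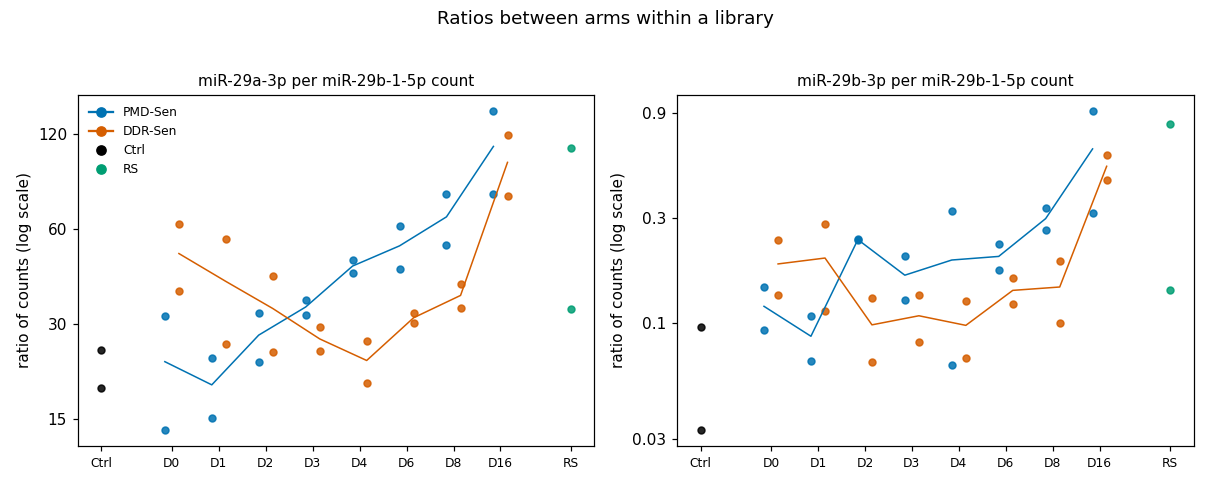
Counts of hsa-miR-29a-3p (left) and hsa-miR-29b-3p (right) per count of hsa-miR-29b-1-5p in every library, on log axes. Points are libraries, lines join the means of the replicates, and days are spaced evenly. The left ratio was 18.8 and 24.9 in Ctrl and reached 142 and 77.2 at D16 of PMD-Sen and 76.1 and 119 at D16 of DDR-Sen.

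Over the 18 condition means of log2 CPM, Pearson's r between 2 members ranged from -0.41 to 0.60 over 10 pairs. The highest value joined the 5p arms hsa-miR-29a-5p and hsa-miR-29b-1-5p. The value between hsa-miR-29a-3p and hsa-miR-29b-1-5p, from neighbouring hairpins, was -0.04. It was 0.40 between hsa-miR-29a-3p and hsa-miR-29b-3p, 0.01 between hsa-miR-29a-3p and hsa-miR-29c-3p, and -0.18 between the arms hsa-miR-29b-3p and hsa-miR-29b-1-5p. The 18 points share libraries and scaling across miRNAs, and the rare arms carry counting noise that lowers r. The 5 miRNAs outside the family most like hsa-miR-29a-3p were hsa-miR-199a-5p (r = 0.85), hsa-miR-143-3p (0.78), hsa-miR-106b-5p (0.74), hsa-miR-21-5p (0.70) and hsa-miR-30b-5p (0.63). hsa-miR-199a-5p, hsa-miR-143-3p and hsa-miR-21-5p are abundant in fibroblasts. For hsa-miR-29b-3p the closest were hsa-miR-27a-3p (0.60), hsa-miR-424-5p (0.58), hsa-miR-24-3p (0.57), hsa-miR-186-5p (0.57) and hsa-miR-330-5p (0.53). For hsa-miR-29c-3p they were hsa-miR-431-3p (0.59), hsa-miR-381-3p (0.58), hsa-miR-412-5p (0.57), hsa-miR-103a-3p (0.56) and hsa-miR-126-3p (0.56). Each list holds the highest values among all tested miRNAs, and for the rare arms these stayed at or below 0.60.

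Other miRNAs named in the literature on fibrosis were read beside the family. Of 7 miRNAs described as raising fibrosis, all were tested, and in the late conditions, PMD-Sen D16, then DDR-Sen D16, then RS, there were 1, 0 and 0 called higher and 1, 2 and 2 called lower. Of 11 described as lowering it, 8 were tested, with 2, 2 and 2 called higher and 0, 1 and 1 called lower. Of all tested miRNAs, 16.7%, 23.1% and 22.5% were called in either direction. The median log2 fold changes were -0.28, -0.58 and -0.52 for the first list and 0.01, 0.12 and 0.20 for the second, beside 0.05, -0.03 and 0.12 over all tested miRNAs. A single miRNA of each list was called in the same direction in all 3 late conditions. The lists had been chosen with earlier results of these data known, so these calls are not an independent finding. hsa-miR-155-5p, a miRNA of inflammatory signalling counted as profibrotic, fell in all of them, with log2 fold changes of -2.01 (SE 0.26) for the SDS-treated cells, -3.41 (SE 0.28) for the DXR-treated cells and -3.08 (SE 0.27) for RS, and an adjusted p of at most 5.08e-06 (edgeR). hsa-miR-30a-5p, counted as antifibrotic, rose by 0.91 (SE 0.24), 1.01 (SE 0.24) and 0.67 (SE 0.23), with adjusted p of 0.00871, 0.00250 and 0.0391 (edgeR). The authors had already reported, from the same libraries, the fall of this profibrotic miRNA in PMD-Sen, DDR-Sen and RS. They had also reported a rise of the family of this antifibrotic miRNA in DDR-Sen. The matrix-repressing 3p arms of the miR-29 family were not called in any of the 3 late conditions against Ctrl.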

How the data were processed

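Small RNA was sequenced from 36 WI-38 libraries, 2 biological replicates in each of 18 conditions. Trimming, mapping to GRCh38, alignment against miRBase and counting were done by the authors in the exceRpt pipeline, and their table, as deposited, gives 1 expected count for each mature miRNA and library without normalization. Of 54288 values, 1003 were not whole, and all were rounded. Members were matched by name, and groups came from the sample labels. The counts were tested with edgeR 4.0.16 in R 4.3.3 (TMM, filterByExpr on the conditions, quasi-likelihood test, all 36 libraries in 1 model), and p-values were adjusted over the 360 tested miRNAs by Benjamini-Hochberg. CPM of the members used TMM-scaled totals, the marker sums plain library totals, and log2 CPM a prior count of 2. Slopes used the 32 libraries of the PMD-Sen and DDR-Sen series. DESeq2 1.42.0 was an alternative, as were other scalings, filters, thresholds, a replicate block, thinning and leaving out libraries. The code was tested on simulated data. The members, the lists of miRNAs and the tests were chosen with earlier results of these data known. Named beyond the members were the 5 tested miRNAs most like each 3p arm and the fibrosis miRNAs called one way in all 3 late conditions. Sequences came from RefSeq. Replicate numbers do not pair samples by the labels. The mRNA data were not analysed here.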

Additional observations from a re-analysis of the deposited data

Results flagged for a closer look

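The slope of hsa-miR-29a-3p with day was called as different between the series in the main fit, while neither slope alone was called. It was 0.08 (SE 0.05) per unit of log2(day + 1) in PMD-Sen and -0.12 (SE 0.05) in DDR-Sen, and the difference was 0.20 (SE 0.07, adjusted p = 0.0469 by edgeR). It stood out because the same contrast, level against day, was tested directly between the series. The difference was above 0 under all 12 alternatives run, from 0.05 per day, with day itself on the axis, to 0.34 per unit of log2(day + 1) without replicate 2. The adjusted p ranged from 0.00232 to 0.816 over them, and the highest was that without replicate 1. The call was lost without replicate 1, without D16, with DESeq2's size factors and with library totals. It was also lost at a mean of at least 10 counts, with thinning and with day itself. The alternatives reuse the same libraries, so their common sign is no separate evidence. With 2 replicates a condition, no test for single outlying libraries was made.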

How the results depend on the processing

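The fall of hsa-miR-29b-1-5p against Ctrl in RS and at D16 of either series and its slope in PMD-Sen were called under all 48 alternative fits of these results. Of 351 alternative values of hsa-miR-29a-3p, hsa-miR-29b-3p and hsa-miR-29b-1-5p, 30 had the other sign, and none of these had been called. For the rare arms hsa-miR-29a-5p and hsa-miR-29c-3p, 39 of 206 alternative values had the other sign and 0 were called. The replicate numbers share only a number: between conditions the replicate differences correlated from -0.46 to 0.37 (median 0.04). With a replicate block the slope of hsa-miR-29b-1-5p in PMD-Sen was -0.56 and no call of a member changed.

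Where a count of members called changed, the cause was not tested. By the study's thresholds, with p not adjusted and a change of over 1 log2 unit, it was 2 in place of 1 at PMD-Sen D16 and 2 over all time points, as hsa-miR-29b-3p passed. Leaving out 1 library gave 1 to 2 at PMD-Sen D16 against Ctrl and 0 to 1 at PMD-Sen D16 against RS, where the fit without a filter also gave 1. For the PMD-Sen slope it was 2 with no filter and without D0, and 1 to 2 without either replicate number. For the DDR-Sen slope it was 1 with DESeq2, with its size factors, with library totals, at a mean of at least 10 counts, with day itself, without D0 and without D16, and 2 with no filter. The member called without D16 was hsa-miR-29a-3p (-0.18). For the difference of slopes it was 2 with DESeq2, 0 with its size factors, library totals, a mean of at least 10 counts, thinning or day itself, and 0 to 2 without either replicate number.

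Values of the other sign are given here with their ranges. hsa-miR-29a-3p at DDR-Sen D16 against Ctrl was -0.0036 with DESeq2 and with its size factors, -0.059 with library totals, -0.055 at a mean of at least 10 counts, and -0.11 to 0.15 without 1 library. Without 1 library it ranged from -0.63 to 0.034 for RS against Ctrl and from -0.033 to 0.63 for DDR-Sen D16 against RS, and without either replicate number from -0.0082 to 0.19 for the PMD-Sen slope and from -0.083 to 0.18 for PMD-Sen minus DDR-Sen over D1 to D16. Without 1 library hsa-miR-29b-1-5p ranged from -0.57 to 0.47 for PMD-Sen D16 against RS and from -0.87 to 0.15 for DDR-Sen D16 against RS. Both highest values were those without RS replicate 1. Its DDR-Sen slope was 0.0085 without D16. hsa-miR-29b-3p at DDR-Sen D16 against RS was 0.027 with DESeq2, 0.019 with its size factors, 0.043 with library totals, 0.55 when thinned, and -0.49 to 0.97 without 1 library. Without 1 library it was -0.20 to 1.03 for PMD-Sen D16 against DDR-Sen D16 and -0.21 to 1.52 against RS, lowest without PMD-Sen D16 replicate 1, and -0.14 to 1.67 for RS against Ctrl. Its PMD-Sen slope was -0.15 when thinned, -0.14 without D16 and -0.084 to 0.18 without either replicate number. Its DDR-Sen slope was 0.12 when thinned and 0.0063 per day, and the difference -0.27 when thinned and -0.059 to 0.21 without either replicate number.

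Depth limits the rare arms: at most 3 counts in 19 libraries for hsa-miR-29c-3p. With library totals in place of TMM the median log2 fold change of all tested miRNAs at DDR-Sen D1 moved from -0.05 to -0.24. A lone library left in a condition was assumed to vary like the others.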

Other observations

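The likeness of hsa-miR-29b-1-5p to miRNAs outside the family was looked up after its values had been seen. Over the 18 condition means of log2 CPM, the closest were hsa-miR-193a-5p (Pearson's r = 0.89), hsa-miR-4521 (0.89), hsa-miR-214-3p (0.88), hsa-miR-1908-5p (0.88) and hsa-miR-484 (0.87). These values are higher than those of the 3p arms, and the points share libraries and scaling. hsa-miR-29b-2-5p, the 5p arm of MIR29B2, had at most 3 counts in 28 of 36 libraries and 23 counts in PMD-Sen D16 replicate 1, the library that also held the 22 counts of hsa-miR-29c-5p and the 57 of hsa-miR-29c-3p.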
